A study of Homo sapiens with 48 samples.

Results

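RNA of 6 genes for cell-surface antigens of prostate cancer, FOLH1, STEAP1, STEAP2, PSCA, CD276 and CEACAM5, was followed in 22Rv1 cells and their derivatives. They were chosen by gene symbol because imaging agents and antibody-based drugs are directed against their products, and all 6 were found among the 61815 genes of the count table and passed the filter on low counts. RNA was sequenced in 48 libraries that form 16 groups of 3. 22Rv1 is a human line of castration-resistant prostate cancer, and the study used it to compare the response to a Mediator kinase inhibitor (MKI) with and without androgen in the medium, and with active or kinase-dead forms of the targets.

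The MKI was SNX631, which inhibits CDK8 and CDK19, and every culture received either 500 nM SNX631 or 0.1% DMSO as vehicle for 72 h. The parental cells (Rv1-WT) and a derivative with lentiviral firefly luciferase (Rv1-Luc) were grown in either of 2 media. The first held 10% fetal bovine serum (FBS), and the second had it replaced by the same share of charcoal-stripped serum (CSS), from which steroid hormones such as androgens have been removed. The other 4 derivatives were grown in FBS and share a CRISPR/Cas9 knockout of both CDK8 and CDK19. They carry, by lentivirus, wild-type CDK8 (dKO-8), D173A kinase-dead CDK8 (dKO-8M), wild-type CDK19 (dKO-19) or D173A kinase-dead CDK19 (dKO-19M). In the study, dKO-19 and dKO-19M were made from the knockout cells directly. dKO-8 and dKO-8M came from knockout cells that already carried an empty lentiviral vector, and so had a further transduction. Each derivative is a single line, so a difference between lines cannot be told apart from the history of that line. CSS cultures also spent a passage in CSS and were plated more densely than FBS cultures, which cannot be told apart from the serum itself. The study states that each condition had at least 3 biological replicates. The labels do not say whether the 3 replicates of a group were separate cultures, so p-values measure the spread between these samples, which may be technical.

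Library totals ran from 13.2 to 31.5 M counts, and those of Rv1-WT (13.2 to 18.2 M) were below those of every other line (from 19.3 M). RNA of the targeted kinases followed the labels: CDK8 was at 25.4 to 28.3 CPM (read counts scaled to a common library size) in Rv1-WT, 60.5 to 71.5 in dKO-8 and 118 to 134 in dKO-8M, and CDK19 at 148 to 281 CPM in Rv1-WT, 469 to 519 in dKO-19 and 298 to 360 in dKO-19M. CDK19 RNA was still at 101 to 135 CPM in dKO-8 and CDK8 RNA at 24.9 to 28.9 CPM in dKO-19, so RNA level does not check the knockout itself. The luciferase transgene FfLuc was at 484 to 517 CPM in Rv1-Luc and at 0 in all other lines. Of 9 luminal prostate markers, 7 reached 1 CPM in all 16 groups. KLK3 and KLK2 did not, with group means of 0.453 to 10.7 CPM and 0.567 to 17.9 CPM over all groups. In the dKO groups KLK3 was at 0.506 to 5.87 CPM, so its lowest group mean lay outside them. Group means were at most 0.149 CPM for the basal markers KRT5, KRT14 and TP63, 0.436 CPM for the leukocyte marker PTPRC and 0.639 CPM for the endothelial markers. Some markers of other types were present: of the stromal markers COL1A1 was at 2.96 to 9.41 CPM and ACTA2 at 2.57 to 6.25, whereas DCN reached at most 0.620. The neuroendocrine marker SYP was at 34.0 to 88.2 CPM and CHGA at up to 3.85, and of the plasma cell markers SDC1, which epithelial cells also make, was at 64.7 to 268 CPM and IGHG1 at up to 6.19.

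Surface antigens are proteins that cancer cells display at higher density than most normal tissues, so that a ligand or antibody can find the tumour or carry a payload into it. FOLH1 encodes PSMA, a membrane peptidase that cleaves glutamate from folates and from a brain dipeptide, and is the target of PSMA PET tracers and radioligands. STEAP1 and STEAP2 belong to a family of membrane metalloreductases with a haem group, PSCA is a small GPI-anchored protein of the LY6/uPAR family, CD276 (B7-H3) is an immune checkpoint ligand of the B7 family and CEACAM5 (CEA) is a GPI-anchored adhesion protein. FOLH1 RNA is known to be repressed by androgen signalling in many prostate cancer lines. The present files measure RNA and not protein at the cell surface.

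FOLH1 (ENSG00000086205.18) lies on the minus strand at chr11:49146635-49208670 in GRCh38. STEAP1 (ENSG00000164647.9) and STEAP2 (ENSG00000157214.14) are neighbours on the plus strand, at chr7:90154375-90164829 and chr7:90167590-90238137, with 2760 bases between them. CD276 (ENSG00000103855.18) is on the plus strand at chr15:73683966-73714518, CEACAM5 (ENSG00000105388.17) on the plus strand at chr19:41708585-41729798. PSCA has the identifier ENSG00000167653.5. These positions are those of GENCODE release 29.

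The 2 neighbouring STEAP genes both fell in CSS, so the bases just upstream of their transcription starts are shown. They come from RefSeq promoter windows of GRCh38.p14, in which 4 of the 6 genes have an entry, and are printed up to the base before the exon of GENCODE that follows. The STEAP1 stretch is chr7:90154219-90154374 and ends 95 bases before the RefSeq start. The STEAP2 stretch is chr7:90211490-90211685, lies inside the gene as GENCODE draws its longest transcripts, and ends 55 bases before the RefSeq start. Capitals mark every match to CCGGAA or its reverse complement TTCCGG, the core bound by ETS factors, a motif chosen after the sequences were seen.
STEAP1: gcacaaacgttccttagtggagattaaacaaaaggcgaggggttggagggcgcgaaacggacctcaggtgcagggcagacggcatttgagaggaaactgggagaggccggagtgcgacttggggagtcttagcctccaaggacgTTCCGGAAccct
STEAP2: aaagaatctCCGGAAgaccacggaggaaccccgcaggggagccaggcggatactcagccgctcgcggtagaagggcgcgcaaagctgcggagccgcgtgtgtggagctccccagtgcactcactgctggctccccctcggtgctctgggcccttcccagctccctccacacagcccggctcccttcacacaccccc
STEAP1 holds 2 overlapping matches, 1 on each strand, and STEAP2 holds 1. Windows of the same length and place hold such a match in 7.0% (STEAP1 length) and 9.7% (STEAP2 length) of 35116 RefSeq promoters. Neither stretch holds the GC box GGGCGG or CCGCCC, which 26.9% and 34.2% of windows of those lengths hold, or the TATA box TATAAA or TTTATA (6.5% and 7.5%). These are matches of letters and not binding sites. GC content was 57.7% in the STEAP1 stretch and 67.9% in the STEAP2 stretch, against medians of 56.4% and 57.1% over all promoters.

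Between genes, levels were compared only per length, as CPM per kb of annotated exons. In Rv1-WT in FBS under vehicle the order was FOLH1 (90.6 CPM per kb), STEAP1 (35.4), STEAP2 (16.2), CD276 (13.4), PSCA (2.31) and CEACAM5 (0.146). In the 4 dKO derivatives under vehicle, PSCA stood above FOLH1 on the same scale. PSCA was at 68.1 CPM per kb in dKO-8, 27.6 in dKO-8M, 120 in dKO-19 and 5.84 in dKO-19M, where FOLH1 was at 1.52, 4.56, 7.56 and 3.91 CPM per kb. All further levels are CPM scaled with TMM (trimmed mean of M values) factors, and all changes are log2 fold changes on that scale.

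**Figure D1:**
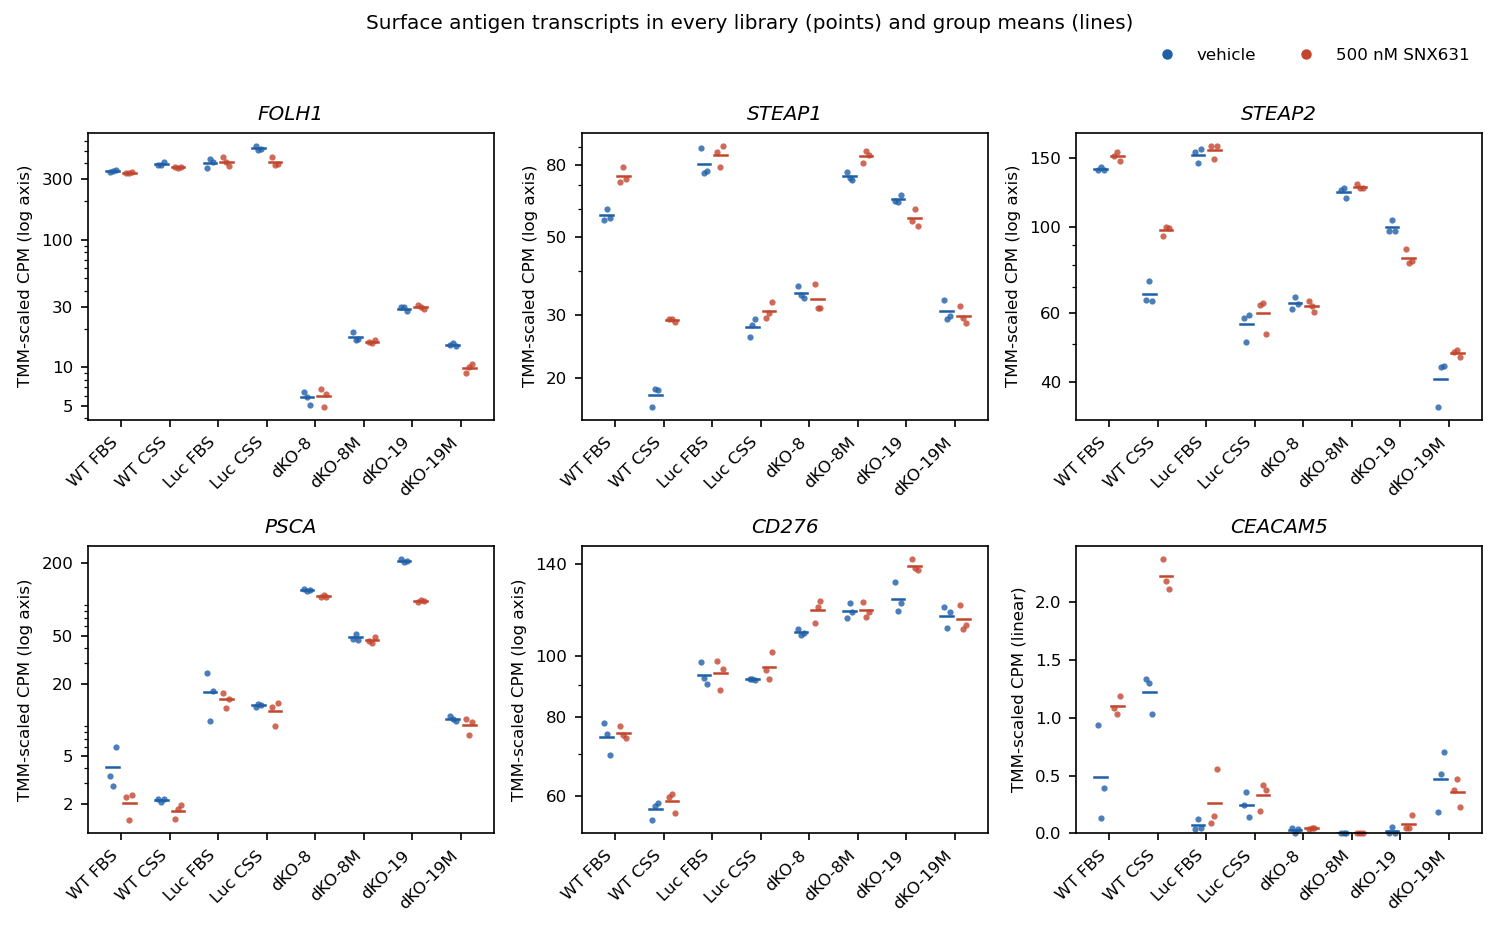
Level of each antigen gene in all 48 libraries (TMM-scaled CPM, log axis except for CEACAM5, whose axis is linear), by line and medium. Points are libraries, short lines are means of 3, blue is vehicle and red is 500 nM SNX631. FOLH1 sits at 331 to 548 CPM in Rv1-WT and Rv1-Luc and at 4.90 to 30.9 CPM in the dKO derivatives, while CD276 spans only 55.0 to 143 CPM.

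FOLH1 RNA was abundant in Rv1-WT and Rv1-Luc and scarce in the 4 dKO derivatives. Over the 24 libraries of Rv1-WT and Rv1-Luc it ran from 331 to 548 CPM with a median of 387, and over the 24 dKO libraries from 4.90 to 30.9 CPM with a median of 15.5. The lowest library of the first set was 10.7 times the highest of the second. Under vehicle in FBS, Rv1-WT had 342, 347 and 351 CPM in replicates 1 to 3, dKO-8 had 6.43, 5.91 and 5.10, and dKO-8M had 19.1, 16.5 and 16.7. dKO-19 had 29.5, 29.5 and 27.7 CPM, and dKO-19M had 14.8, 15.4 and 14.6. The vehicle libraries of the 4 dKO lines did not overlap, with dKO-19M and dKO-8M closest to each other. Among the 16 group means, ordered by size, 5 of the 15 neighbouring pairs overlapped in their libraries.

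FOLH1 has a near copy, the pseudogene FOLH1B (chr11:89639237-89698718), which was listed at 0.698% to 2.12% of the FOLH1 level, and neither had a fractional count in any of the 48 libraries. FOLH1B was also lower than in Rv1-WT in each dKO derivative, by -4.13 in dKO-8M, -3.58 in dKO-19 and -4.20 in dKO-19M on the log2 scale, and at least 42.1-fold in dKO-8, where each library held 3 counts or fewer. In the same way, the antisense gene STEAP2-AS1 reached at most 0.106% of STEAP2 and the paralogue STEAP1B at most 0.433% of STEAP1. CEACAM6, by contrast, stood far above its relative CEACAM5, at 10.3 against 0.488 CPM in Rv1-WT in FBS under vehicle. No library of FOLH1 held fewer than 113 counts, so its low dKO values lie well above the limit of detection. In bulk RNA, fewer cells with FOLH1 and less FOLH1 per cell cannot be told apart.

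PSCA was low in Rv1-WT, intermediate in Rv1-Luc and dKO-19M and high in dKO-8, dKO-8M and dKO-19. Under vehicle in FBS, Rv1-WT had 3.41, 2.81 and 5.97 CPM and Rv1-Luc had 24.4, 9.85 and 17.4. dKO-8 had 122, 118 and 120 CPM, dKO-8M had 47.6, 51.7 and 46.6, dKO-19 had 218, 204 and 211 and dKO-19M had 10.9, 10.1 and 9.86. Rv1-Luc and dKO-19M overlapped, and the other lines lay apart from each other. The scatter between replicates was widest in Rv1-WT and Rv1-Luc in FBS (SD 1.68 around a mean of 4.06 and SD 7.30 around 17.2, n = 3), and PSCA had between 20 and 92 counts in the Rv1-WT libraries. Ordered by mean, 8 of 15 neighbouring pairs of groups overlapped.

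**Figure D2:**
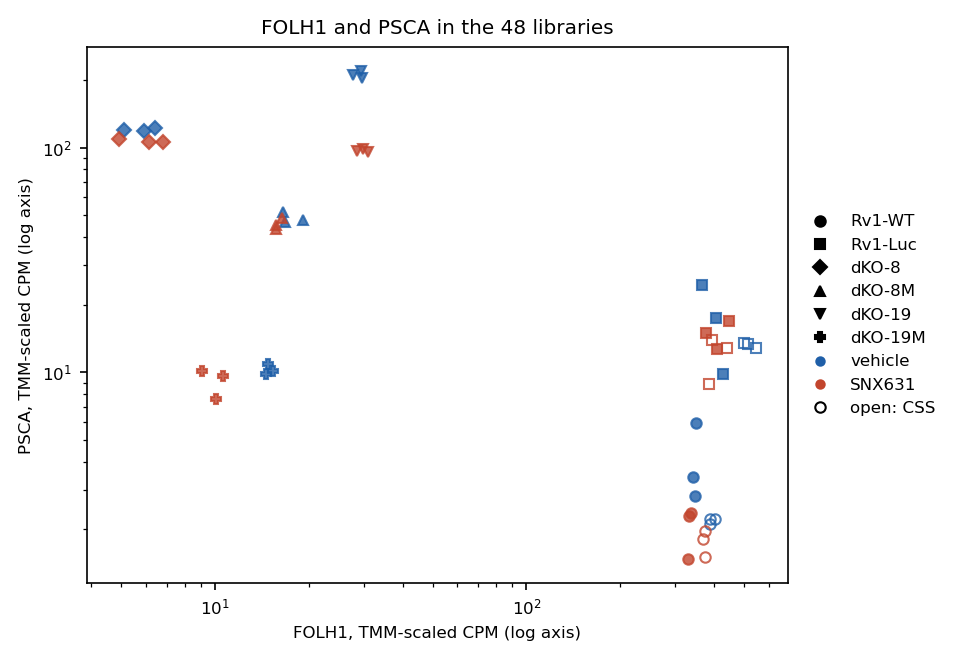
FOLH1 (horizontal, CPM, log axis) against PSCA (vertical, CPM, log axis) in each of the 48 libraries, with a symbol for each line and open symbols for CSS. Rv1-WT and Rv1-Luc lie at the right with FOLH1 at 331 CPM or more and PSCA at 24.4 CPM or less, and dKO-19 and dKO-8 lie at the upper left with PSCA at 95.5 to 218 CPM.

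STEAP1 and STEAP2 had the same lines at the low end. In FBS under vehicle STEAP1 was at 55.9, 60.1 and 56.7 CPM in Rv1-WT, 89.6, 75.7 and 76.9 in Rv1-Luc and 76.5, 73.6 and 72.5 in dKO-8M. It was at 63.2, 62.9 and 65.7 CPM in dKO-19, 36.4, 34.3 and 33.7 in dKO-8 and 33.1, 29.3 and 29.9 in dKO-19M. STEAP1 in dKO-8 and dKO-19M was thus below the other 4 lines in FBS. STEAP2 was at 61.7, 66.0 and 63.4 CPM in dKO-8 and 34.5, 43.7 and 44.1 in dKO-19M, against 140, 143 and 140 in Rv1-WT, 155, 145 and 158 in Rv1-Luc, 124, 125 and 119 in dKO-8M and 97.4, 104 and 97.7 in dKO-19. Across neighbouring pairs of groups in order of mean, 11 of 15 overlapped for STEAP1 and 7 of 15 for STEAP2.

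CD276 varied least of the 6 genes, with its highest library, at 143 CPM, 2.59 times its lowest, at 55.0 CPM. Its 24 libraries of Rv1-WT and Rv1-Luc (55.0 to 101 CPM) did not overlap its 24 dKO libraries (108 to 143 CPM). Within the dKO set the vehicle means were close, at 109 CPM in dKO-8, 118 in dKO-8M, 116 in dKO-19M and 123 in dKO-19, and 10 of 15 neighbouring pairs of groups overlapped over all groups.

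CEACAM5 was barely detected. It had 3 counts or fewer in 24 of 48 libraries and 0 in 9, and its highest count in any library was 41. A count of 3, the limit that a count of 0 allows for counting error, corresponds to 0.0981 to 0.221 CPM depending on the library. All 3 libraries stayed at or under that limit in 7 groups, those of dKO-8, dKO-8M and dKO-19 under both treatments and Rv1-Luc in FBS under vehicle. The highest levels were in Rv1-WT in CSS, at 1.33, 1.30 and 1.04 CPM under vehicle and 2.37, 2.19 and 2.12 under SNX631. In FBS under vehicle Rv1-WT had 0.941, 0.134 and 0.389 CPM and dKO-19M had 0.186, 0.513 and 0.707, a spread as wide as the level itself. CEACAM5 had a fractional count in 9 of 48 libraries, and whether reads of the more abundant CEACAM6 add to it was not tested.

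The first comparison asked what MKI does to the antigens where an active kinase is present, which is the case in 6 settings: Rv1-WT and Rv1-Luc in each medium, dKO-8 and dKO-19. A call needed both a fold change over 1.5 and a false discovery rate (FDR) under 0.01, by edgeR's quasi-likelihood test over 20009 genes with Benjamini-Hochberg adjustment. SNX631 moved few of the 6 antigens: 2 of 36 gene and setting pairs were called, STEAP1 higher in Rv1-WT in CSS and PSCA lower in dKO-19. The share of all tested genes called was 2.39% in Rv1-WT in FBS, 4.23% in Rv1-WT in CSS, 3.67% in Rv1-Luc in FBS, 4.06% in Rv1-Luc in CSS, 1.71% in dKO-8 and 3.41% in dKO-19, so that 2 of 36 is near the background. The 2 calls were in Rv1-WT in CSS and in dKO-19, 1 of 6 genes each, and the other 4 settings had 0 of 6. At an unadjusted p under 0.05 edgeR gave 3 genes in Rv1-WT in FBS, 1 in Rv1-Luc in FBS, 2 in Rv1-Luc in CSS and 1 in dKO-8, and DESeq2 called PSCA in Rv1-WT in FBS. By range alone, the 3 treated and 3 vehicle libraries did not overlap in 18 of the 36 pairs. FOLH1 in Rv1-WT in FBS, at -0.05 with FDR = 0.586 (edgeR), is among those 18. The share of all genes at p under 0.05, or without overlap, is not given here. Neither count is therefore a result about the antigens.

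FOLH1 moved little under MKI in cells that express it. In Rv1-WT in FBS it was 334, 331 and 338 CPM with SNX631 against 342, 347 and 351 with vehicle, a log2 fold change of -0.05 ± 0.0513 (SE, FDR = 0.586, edgeR) with a 95% interval of -0.156 to 0.053. The treated libraries were all lower, by a margin of a few CPM. In Rv1-WT in CSS the change was -0.08 ± 0.0507 (FDR = 0.269), in Rv1-Luc in FBS 0.04 (FDR = 0.679), in dKO-8 0.05 (FDR = 0.867) and in dKO-19 0.04 (FDR = 0.737). Rv1-Luc in CSS was the setting with the largest change: 442, 387 and 395 CPM with SNX631 against 548, 501 and 514 with vehicle, all 3 treated libraries below all 3 controls. That change of -0.35 (1.28-fold, 95% interval -0.455 to -0.252, FDR = 1.09e-07) was below the fold change limit.

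PSCA fell in dKO-19 under SNX631, from 218, 204 and 211 CPM to 95.5, 98.8 and 96.9, with no overlap. The log2 fold change was -1.12 ± 0.118 (2.17-fold, FDR = 4.09e-09, edgeR). In dKO-8 the change was -0.17 ± 0.119 (FDR = 0.424), from 122, 118 and 120 CPM to 106, 109 and 106, and here too the groups did not overlap. In Rv1-WT in FBS the SNX631 libraries had 2.29, 1.48 and 2.37 CPM, below the vehicle values of 2.81 to 5.97, and the change was -0.95 ± 0.396 (FDR = 0.112, not called). That value rests on few counts. DESeq2 gave -0.97 with FDR = 0.00168 for it, and the fit of only those libraries -0.96 with FDR = 0.00585, so its call depended on the fit. In the 3 other settings it changed by -0.31 (Rv1-WT in CSS), -0.23 (Rv1-Luc in FBS) and -0.16 (Rv1-Luc in CSS), none called.

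STEAP1 rose in Rv1-WT in CSS under SNX631, from 16.5, 18.6 and 18.4 CPM to 29.3, 29.3 and 28.7, a change of 0.71 ± 0.0786 (1.63-fold, FDR = 1.29e-10, edgeR). STEAP2 had 94.6, 99.7 and 99.5 CPM there against 64.8, 72.6 and 64.6 with vehicle, also without overlap, and its change of 0.54 ± 0.0605 (1.46-fold, FDR = 1.60e-10) was just under the fold change limit. Without replicate 2 of the vehicle group it was 0.60 and called. In FBS the same line gave 71.5, 78.7 and 73.0 CPM for STEAP1 with SNX631, against 55.9 to 60.1 with vehicle (0.37 ± 0.0626, FDR = 9.59e-06, not called), and 0.10 (FDR = 0.248) for STEAP2. Neither gene was called in Rv1-Luc, where STEAP1 changed by 0.08 in FBS (FDR = 0.341) and 0.16 in CSS (FDR = 0.0884). In dKO-19 the sign was the opposite, with -0.18 (FDR = 0.0257) for STEAP1 and -0.26 ± 0.0580 (FDR = 0.000557) for STEAP2, neither past the fold change limit.

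CD276 changed by -0.02 to 0.17 under SNX631 in all 8 settings with the drug, and none was called. The largest change was in dKO-19, where 143, 138 and 137 CPM with SNX631 stood above 131, 118 and 121 with vehicle (0.17 ± 0.0444, FDR = 0.00244, edgeR). CEACAM5 gave 1.09, 1.03 and 1.19 CPM in Rv1-WT in FBS with SNX631 against 0.941, 0.134 and 0.389 with vehicle, a change of 1.13 ± 0.446 (FDR = 0.0829). In CSS its change was 0.86 ± 0.337 (FDR = 0.0502), with all 3 treated libraries above all 3 controls. Neither was called. Without replicate 1 of the vehicle group the FBS change was 2.05 and called, and the CSS change was called in the fit of only the libraries compared (FDR = 0.00539). CEACAM6 rose with SNX631 in the same line, from 10.3 to 21.6 CPM in FBS and from 10.7 to 24.5 in CSS. Its part in the CEACAM5 counts was not tested.

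**Figure D3:**
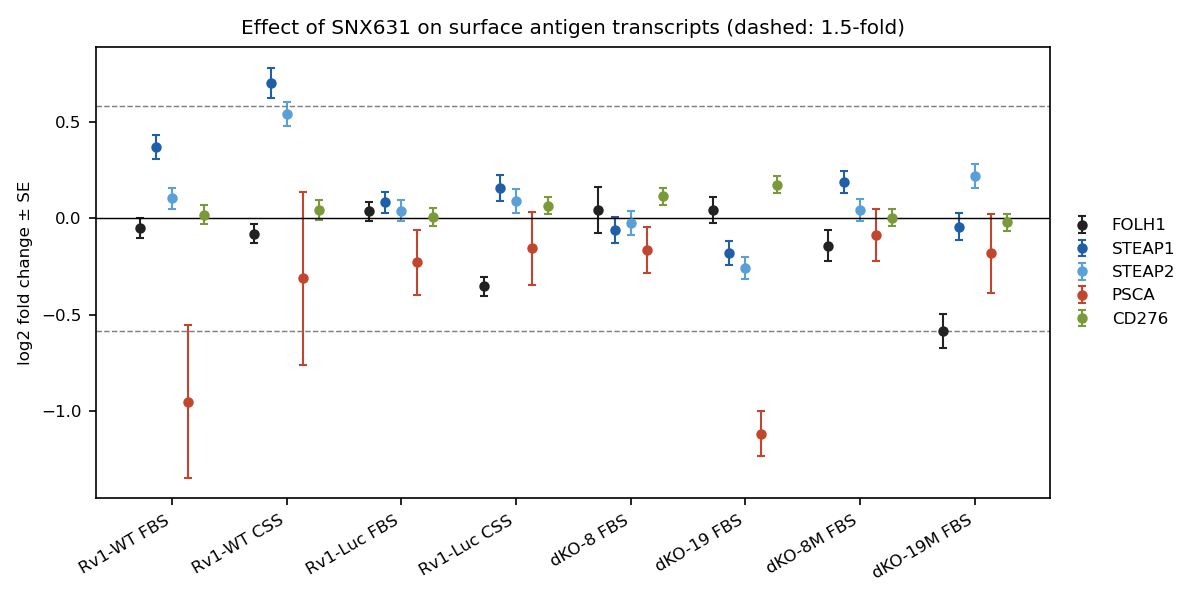
Change under 500 nM SNX631 against vehicle (log2 fold change ± SE from the fit, 3 libraries in each group) for 5 antigen genes in the 8 settings, with dashed lines at the 1.5-fold limit; CEACAM5 is left out because it was near 0 counts in most groups. The points beyond the limit with an FDR under 0.01 are STEAP1 in Rv1-WT CSS (0.71), PSCA in dKO-19 (-1.12) and FOLH1 in dKO-19M (-0.59, just past it).

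In the kinase-dead derivatives the re-expressed target lacks kinase activity, and 1 of 12 pairs was called there. Each is a single line that also differs from its active partner under vehicle. A missing change there cannot be tied to kinase activity alone. Few genes moved at all: 0.015% of tested genes were called in dKO-8M and 0.09% in dKO-19M. In dKO-8M 0 of 6 antigens were called by edgeR, with 1 at an unadjusted p under 0.05, and DESeq2 added none. The call was FOLH1 in dKO-19M, which fell from 14.8, 15.4 and 14.6 CPM to 9.10, 10.1 and 10.6, with no overlap. The change of -0.586 ± 0.0894 (1.50-fold, FDR = 3.56e-05) sat on the fold change limit. It was -0.585, -0.565 and -0.532, short of that limit and not called, with replicate numbers as a block, without vehicle replicate 2 and without SNX631 replicate 1. The vehicle replicate 1 of dKO-19M stood apart from the other 2 of its group over all genes (chi-square per degree of freedom 17.7 and 17.1 against 1.45 between those 2), and FOLH1 was at 14.8 CPM in it. PSCA in dKO-19M went from 10.9, 10.1 and 9.86 CPM to 10.1, 7.58 and 9.64, overlapping groups with a change of -0.18 ± 0.205 (FDR = 0.747). In dKO-8M it changed by -0.09 and FOLH1 by -0.14 (FDR = 0.603).

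Differences between SNX631 effects were tested as interactions. Of 42 such terms, which include the difference in the effect of CSS, 3 were called. For FOLH1 the effect in dKO-19 was 0.63 ± 0.114 above that in dKO-19M (FDR = 4.91e-05, edgeR). For PSCA the effect in dKO-19 was lower than that in dKO-19M by -0.94 ± 0.239 (FDR = 0.00781) and lower than that in dKO-8 by -0.95 ± 0.167 (FDR = 0.000262). Both use the same dKO-19 libraries. The FOLH1 difference was 0.57 and not called without SNX631 replicate 1 of dKO-19M, and the PSCA difference from dKO-19M was called in 1 of 12 fits that left out a single library, at -1.06 to -0.86. The share of all genes called was 2.07% for dKO-19 against dKO-19M, 0.885% for dKO-19 against dKO-8, 0.905% for dKO-8 against dKO-8M, 0.295% for CSS against FBS in Rv1-WT, 0.08% for the same in Rv1-Luc and 0.175% for Rv1-Luc against Rv1-WT. It was 8.65% for the difference in the effect of CSS between Rv1-Luc and Rv1-WT. STEAP2 in Rv1-WT responded more in CSS than in FBS by 0.44 ± 0.0829 (FDR = 0.00045), and the same difference for STEAP1 was 0.34 ± 0.101 (FDR = 0.0475), both short of the call. FOLH1 in Rv1-Luc was lower in CSS than in FBS by -0.39 ± 0.0706 in its response (FDR = 0.000982), again without a call.

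Androgen-depleted medium lowered both STEAP genes in both lines and under both treatments, which gave 8 of 24 calls, all lower. The share of all genes called was 10.9% in Rv1-WT under vehicle, 7.83% in Rv1-WT under SNX631, 1.49% in Rv1-Luc under vehicle and 1.51% in Rv1-Luc under SNX631, and 2 of 6 antigens were called each time. STEAP1 in Rv1-WT under vehicle went from 55.9, 60.1 and 56.7 CPM in FBS to 16.5, 18.6 and 18.4 in CSS, a change of -1.69 ± 0.0736 (3.22-fold, FDR = 2.71e-27, edgeR). Its highest CSS library was far below its lowest FBS library. In Rv1-Luc under vehicle it went from 89.6, 75.7 and 76.9 CPM to 26.0, 28.2 and 29.2 (-1.54, 2.91-fold, FDR = 1.25e-27). Under SNX631 the falls were 2.55-fold in Rv1-WT and 2.77-fold in Rv1-Luc.

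STEAP2 fell with its neighbour. In Rv1-WT under vehicle it went from 140, 143 and 140 CPM to 64.8, 72.6 and 64.6 (-1.07 ± 0.0598, 2.10-fold, FDR = 3.11e-22, edgeR), and in Rv1-Luc from 155, 145 and 158 to 58.4, 50.7 and 59.6 (-1.44 ± 0.0581, 2.71-fold, FDR = 1.47e-27). All CSS libraries were below all FBS libraries of the same line and treatment. Under SNX631 the falls were 1.55-fold in Rv1-WT and 2.62-fold in Rv1-Luc. The fall under vehicle was larger in Rv1-Luc than in Rv1-WT by -0.37 ± 0.0832 for STEAP2 (FDR = 0.000271, not called), while the difference for STEAP1 was 0.15 (FDR = 0.272). In CSS the 12 libraries of both lines held 16.5 to 32.8 CPM of STEAP1 and 50.7 to 99.7 CPM of STEAP2, against 55.9 to 90.7 and 140 to 162 in FBS.

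**Figure D4:**
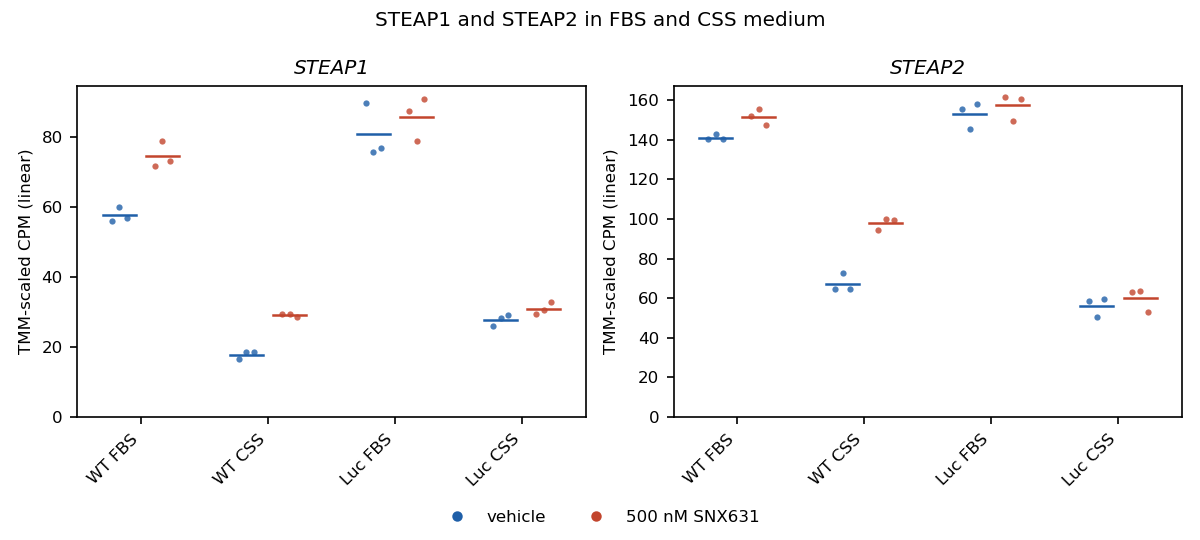
STEAP1 and STEAP2 (TMM-scaled CPM, linear axes from 0) in Rv1-WT and Rv1-Luc in FBS and CSS; points are libraries, short lines are means of 3, blue is vehicle and red is SNX631. STEAP1 is at 55.9 to 90.7 CPM in FBS and 16.5 to 32.8 in CSS, STEAP2 at 140 to 162 and 50.7 to 99.7, and the red points of Rv1-WT in CSS lie above the blue ones for both genes.

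By edgeR over all libraries, the other 4 antigens were not called between CSS and FBS. FOLH1 was somewhat higher in CSS under vehicle: in Rv1-WT at 388, 388 and 404 CPM against 342 to 351 in FBS (0.18, FDR = 0.00224, edgeR) and in Rv1-Luc at 548, 501 and 514 against 367 to 426 (0.38, 1.30-fold, FDR = 5.75e-08). The groups did not overlap in either line. Under SNX631 the change was 0.16 (FDR = 0.0113) in Rv1-WT and -0.01 (FDR = 0.948) in Rv1-Luc. CD276 was lower in CSS in Rv1-WT, at 55.0, 58.0 and 58.7 CPM against 78.4, 75.2 and 69.9 (-0.38 ± 0.0505, FDR = 4.54e-09), and in Rv1-Luc changed by -0.03 (FDR = 0.788). The difference between these effects was 0.36 ± 0.0679 (FDR = 2.48e-05, not called, and 8.65% of all genes were called for that term). PSCA changed by -0.89 ± 0.383 in Rv1-WT under vehicle (FDR = 0.0588) and by -0.38 in Rv1-Luc. The Rv1-WT change was called by DESeq2 (-0.89, FDR = 0.000953), without the filter on low counts (FDR = 1.35e-06) and in the fit of only the libraries compared (FDR = 0.00121). CEACAM5 in Rv1-WT under vehicle was higher in CSS by 1.27 ± 0.434 (FDR = 0.0136), with all 3 CSS libraries above all 3 FBS libraries. It was called at 2.19 without replicate 1 of the FBS vehicle group, and under SNX631, at 1.00, in the fit of only the libraries compared (FDR = 0.00107).

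Androgen-responsive genes were read beside the STEAP genes. Of 13 tested, 6 fell and 2 rose in CSS in Rv1-WT under vehicle, with a median of -0.547 against 0.007 over all genes, and 6 fell and 0 rose in Rv1-Luc, with a median of -0.624 against 0.010. Under SNX631 2 fell and 2 rose in Rv1-WT (median -0.140) and 3 fell in Rv1-Luc (median -0.296), where both STEAP genes were still called lower. In Rv1-WT 10.9% of all genes were called under vehicle and 7.83% under SNX631, and in Rv1-Luc 1.49% and 1.51%. SLC45A3, which encodes the prostate membrane protein prostein, fell in Rv1-WT by 1.43 and in Rv1-Luc by 1.25, and KLK2 and KLK3, the kallikreins of seminal fluid, fell by 0.95 and 0.92 in Rv1-Luc. UGT2B17, which conjugates androgens, rose by 1.43 in Rv1-WT and NDRG1, a stress- and androgen-regulated gene, fell there by 1.37. Under SNX631 this list moved both ways in the kinase-active settings: 2 of 13 rose and 4 fell in Rv1-WT in FBS, where 2.39% of all genes were called. In Rv1-WT in CSS 4 rose and 2 fell, where 4.23% of all genes were called. None was called in dKO-8M or dKO-19M by edgeR, where 0.015% and 0.09% of all genes were. TMPRSS2, a membrane serine protease, rose in all 6 kinase-active settings (1.30 to 2.13), SLC45A3 fell in all 6 (from -2.21 to -0.93) and UGT2B15 was called in 5, with a mean change of -1.53.

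Between lines under vehicle, 19 of 30 pairs were called, 12 higher and 7 lower. The share of all genes called was 17.8% for Rv1-Luc against Rv1-WT in FBS, 31.1% for the same in CSS, 7.03% for dKO-8M against dKO-8, 7.6% for dKO-19M against dKO-19 and 6.51% for dKO-19 against dKO-8, with 2, 4, 4, 5 and 4 of the 6 antigens called. FOLH1, STEAP1 and STEAP2 were higher in the kinase-dead than in the active derivative of CDK8 and lower in that of CDK19. For FOLH1, dKO-8M exceeded dKO-8 by 1.61 ± 0.0973 (3.04-fold, FDR = 1.93e-20, edgeR), whereas dKO-19M against dKO-19 gave -0.95 ± 0.0745 (FDR = 5.03e-16). STEAP1 differed by 1.10 for dKO-8M against dKO-8 and by -1.05 ± 0.0628 for dKO-19M against dKO-19, and STEAP2 by 0.95 and -1.29 ± 0.0606. The libraries of these pairs did not overlap for any of the 3 genes.

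PSCA was lower in the kinase-dead derivative in both pairs. The difference was -1.30 ± 0.126 for dKO-8M against dKO-8 (FDR = 2.66e-10, edgeR) and -4.35 ± 0.149 for dKO-19M against dKO-19 (20.5-fold, FDR = 1.90e-22). Compared with each other, the 2 lines with an active kinase also differed: dKO-19 had 5.00-fold more FOLH1 than dKO-8 (2.32 ± 0.0916, FDR = 1.39e-28), and more PSCA (0.81 ± 0.117, FDR = 9.41e-07), STEAP1 (0.88) and STEAP2 (0.65). CD276 differed by 0.11, -0.09 and 0.18 in these 3 comparisons, none called. CEACAM5, at the limit of detection in dKO-19, was at least 3.30-fold higher in dKO-19M (FDR = 5.72e-05). The further transduction of dKO-8 cannot be told apart from the kinase in the comparison of dKO-19 with dKO-8.

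Rv1-Luc had more PSCA than Rv1-WT, by 2.09 ± 0.243 in FBS (FDR = 6.37e-09, edgeR) and 2.59 ± 0.281 in CSS (FDR = 6.23e-10). CEACAM5 was lower in Rv1-Luc, at least 3.82-fold in FBS (FDR = 0.000815) and by -2.27 ± 0.452 in CSS (FDR = 1.75e-05), and without replicate 1 of the Rv1-WT group the FBS difference was at least 2.05-fold and not called (FDR = 0.0765). STEAP1 and CD276 were called higher in CSS, at 0.64 and 0.68 ± 0.0483, and were at 0.49 and 0.33, not called, in FBS. The STEAP1 call was lost, at 0.58, without replicate 1 of Rv1-WT in CSS. FOLH1 was higher in Rv1-Luc by 0.21 in FBS (FDR = 0.000493) and 0.41 in CSS (FDR = 3.53e-10), below the fold change limit.

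Since the levels in the dKO derivatives stood so far from those in Rv1-WT, each was also compared with Rv1-WT in FBS under vehicle, a comparison added after the levels were seen. It gave 18 of 24 calls, 7 higher and 11 lower, where the share of all genes called was 23.3% for dKO-8, 25.9% for dKO-8M, 22.0% for dKO-19 and 24.4% for dKO-19M. FOLH1 was lower in all 4, by -5.91 ± 0.0769 in dKO-8 (FDR = 1.12e-52, edgeR), -4.30 in dKO-8M (19.7-fold), -3.58 in dKO-19 (12.0-fold) and -4.53 in dKO-19M (23.2-fold). PSCA was higher in all 4, by 4.89 ± 0.194 in dKO-8 (29.6-fold), 3.58 in dKO-8M (12.0-fold), 5.70 ± 0.188 in dKO-19 (51.9-fold) and 1.34 ± 0.261 in dKO-19M (2.54-fold, FDR = 3.76e-05). CD276 was higher by 0.66 (dKO-8M), 0.73 (dKO-19) and 0.64 (dKO-19M), all called, and by 0.55 in dKO-8, not called. With library size in place of TMM, CD276 was at 0.57 (dKO-19) and 0.53 (dKO-19M) and no longer called, and the median of all genes in dKO-19 shifted by -0.153.

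STEAP1 was lower than in Rv1-WT in dKO-8 (-0.73) and dKO-19M (-0.90), and STEAP2 in the same 2 lines (-1.15 and -1.79). In dKO-8M and dKO-19 neither was called, with STEAP1 at 0.37 and 0.15 and STEAP2 at -0.20 and -0.50. With library size in place of TMM, STEAP2 in dKO-19 was at -0.654 and called lower (FDR = 1.22e-13, edgeR). CEACAM5 was at least 3.5-fold lower in dKO-8, 3.80-fold in dKO-8M and 3.43-fold in dKO-19, but at least 1.87-fold, 2.04-fold and 1.84-fold without replicate 1 of Rv1-WT, which held most of its counts. It differed by -0.10 in dKO-19M (FDR = 0.867, edgeR). Without that library the CEACAM5 difference in dKO-8 was not called (FDR = 0.013). All dKO derivatives share the knockout, its guides, a later lentiviral step and growth as derived lines, and dKO-8 and dKO-8M had a further transduction. These cannot be told apart, since the knockout line without a re-expressed kinase was not analysed here.

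As a description, the genes whose pattern over the 16 group means was most like that of each antigen were found by Pearson correlation of log2 levels. These points share lines, libraries of controls and depth, and no test was made. For FOLH1 they were GABRA2 (r = 0.992), FOLH1B (0.989) and MPP1 (0.983), for PSCA KLHDC8B (0.962), ACKR3 (0.961) and MAT2A (0.957), and for CD276 RAB8A (0.983), UBE2C (0.982) and NAP1L4 (0.980). For STEAP1 the values were lower, with IMPA1 (0.836), CNDP2 (0.831) and ARV1 (0.829), and for STEAP2 they were USP15 (0.866), FUT11 (0.856) and MPHOSPH9 (0.835). CEACAM5, which rests on few counts, was most like DUSP6 (0.973), PPIL3 (0.953) and PCDH11X (0.95). Among the antigens themselves r was 0.828 between STEAP1 and STEAP2, 0.843 between PSCA and CD276, -0.689 between FOLH1 and PSCA and -0.745 between FOLH1 and CD276. CEACAM5, near 0 in many groups, had r = -0.882 with PSCA and -0.857 with CD276.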

How the data were processed

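RNA-seq was done on total RNA (directional libraries, per the labels) from 48 samples of 22Rv1 and its derivatives. The deposited table holds expected counts per gene, made by the authors from their reads: 81.6% of nonzero values were whole and none was scaled to depth. How reads shared between genes were counted is not given in the sources used here, so close copies are uncertain. The submitters' processing notes name FastQC, cutadapt 2.8, STAR 2.7.2b, featureCounts, Subread 2.0.3 and the builds GRCh38.p13 and GRCm39, without their roles. The annotation release and strand setting are not given in the sources used here.

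Counts were rounded to whole numbers. The 2 transgene entries were left out of totals and tests. Genes were kept with filterByExpr (minimum count 10, minimum total 15), which left 20009. Samples were grouped by their titles, and all 48 libraries entered 1 fit with TMM factors (0.911 to 1.07), a mean per group, 32 residual degrees of freedom and two-sided robust quasi-likelihood F-tests in R 4.3.3 with edgeR 4.0.16 and limma 3.58.1. P-values were adjusted over all genes of a comparison by the Benjamini-Hochberg method. Genes were called at FDR under 0.01 and fold change over 1.5, the limits stated by the study. Groups of 3 libraries were set against each other in 21 comparisons, beside 7 interactions, and the fit gave 4.2% as biological coefficient of variation. Every comparison gives values for all 6 antigens. Where a group had 3 counts or fewer in each library, a fold is a lower bound against 3 counts per library. Limits of detection and intervals of counts cover counting error only.

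The antigens and the further gene lists were chosen with earlier results of these data known. Genes named for likeness are the 3 with the highest correlation and at least 1 CPM on average. From further lists, up to 3 genes are named that were called in the most kinase-active SNX631 settings, and up to 3 with the largest called change in CSS under vehicle. The fit was tested on simulated data. No 2 replicates agreed within sampling noise (lowest chi-square per degree of freedom 1.28), so none was merged. Same-numbered replicates deviated together (every correlation over 0.1) in 1 of 21 comparisons, SNX631 in dKO-19M. Alternatives were normalization, filter, rounding, thinning, thresholds, a replicate block, DESeq2 1.42.0, a fit of only the libraries compared and leaving out each library. Exon lengths are from GENCODE release 29, and promoter sequences from RefSeq.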

Additional observations from a re-analysis of the deposited data

Results flagged for a closer look

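Of 42 interaction terms, 3 differences between effects of SNX631 passed the limits of FDR and fold change, each by an interaction term of the edgeR fit (quasi-likelihood test). For dKO-19 against dKO-19M 2 of 6 antigens and 2.07% of all genes were called, and for dKO-19 against dKO-8 1 of 6 and 0.885%. The other terms had 0 of 6, with shares of all genes from 0.08% to 8.65%. The effect on FOLH1 in dKO-19 lay above that in dKO-19M by 0.63 ± 0.114 on the log2 scale (FDR = 4.91e-05), with changes of 0.04 and -0.59. FOLH1 encodes PSMA, and its fall in a derivative with a kinase-dead target went with levels of 9.10 to 15.4 CPM. All 3 SNX631 libraries of dKO-19M were below all 3 vehicle libraries, and in dKO-19 the groups overlapped. Without SNX631 replicate 1 of dKO-19M the difference was 0.57 and below the fold change limit.

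The effect on PSCA in dKO-19 differed from that in dKO-19M by -0.94 ± 0.239 (FDR = 0.00781), with changes of -1.12 and -0.18, and from that in dKO-8 by -0.95 ± 0.167 (FDR = 0.000262), where the change was -0.17. The difference from dKO-19M ran from -1.06 to -0.86 when a single library was left out, with FDR from 0.00676 to 0.0372, and was past the limit in 1 of those 12 fits. PSCA started from 211 CPM in dKO-19, 10.3 CPM in dKO-19M and 120 CPM in dKO-8, and the part that these starting levels have in the differences was not tested.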

How the results depend on the processing

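No result changed direction. Of 51 calls of an antigen in a comparison, 34 were kept under every alternative and every left-out library, 15 were lost under some alternative and 6 without some library. Testing against 1.5-fold with glmTreat lost 13, library size in place of TMM 4, thinning to the smallest library 3, a fit of only the libraries compared 2 and the replicate block 1, and RLE normalization, no filter, rounding down and DESeq2 lost none.

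With FDR under 0.05 and no fold change limit, calls rose from 2 to 8 for SNX631 in kinase-active settings, from 1 to 2 in kinase-dead derivatives, from 8 to 15 for CSS against FBS and from 3 to 11 for differences between effects. With glmTreat they were 1, 0, 7 and 0, and a fit of only the libraries compared gave 4 for the kinase-active settings and 0 for the kinase-dead derivatives. There the replicate block gave 0 and thinning gave 0, against 1. The share of all genes called under each of these settings is not given here. A looser limit adds calls for any set of genes, so these counts show nothing particular to the antigens. Leaving out single libraries gave 2 to 3 calls in kinase-active settings, 0 to 1 in kinase-dead derivatives, 8 to 10 for CSS, 18 to 19 between lines, 1 to 3 for differences between effects and 18 for dKO derivatives against Rv1-WT. The kinase-dead call (FOLH1 in dKO-19M) was lost without vehicle replicate 2 or SNX631 replicate 1 of dKO-19M, and the count of differences fell to 1 without that SNX631 replicate 1. The cause of these changes was not tested, beyond what each alternative changes by construction. Without replicate 2 of Rv1-Luc in FBS under vehicle, PSCA was called lower in CSS (-0.67), and with library size alone STEAP2 in dKO-19 against dKO-8 was 0.57 and not called. PSCA in Rv1-Luc against Rv1-WT in FBS had FDR = 0.0303 when only those libraries entered the edgeR fit.

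The replicate block left the other counts of calls unchanged or within 1.5 times. By the rule that all 3 same-number correlations exceed 0.1, replicate numbers paired the samples in 1 of 21 comparisons. That limit was a choice, and it cannot exclude weaker pairing in the others. In SNX631 in dKO-19M, where the block ends the FOLH1 call, all 3 same-number correlations of deviations were over 0.1 (0.132 to 0.336). All 63 correlations ran from -0.115 to 0.336, and 25 libraries were closest to their own number. Depth limits CEACAM5 in all groups and PSCA in Rv1-WT, whose libraries held 20 to 92 counts of it.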

Other observations

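Some relatives of the antigens were called under SNX631. CEACAM6, an adhesion protein closely related to CEACAM5, rose in 5 of 6 kinase-active settings by edgeR (1.07 to 2.60), from 10.3 ± 0.915 to 21.6 ± 1.18 CPM (SD, n = 3) in Rv1-WT in FBS and from 0.787 to 2.77 CPM in Rv1-Luc in FBS. In dKO-19 its change was 1.15 ± 0.343 (FDR = 0.0103), and in dKO-19M -0.04. In dKO-8M both groups were near 0.04 CPM, too few counts for a fold. Of the 11 further CEACAM genes, 2 were tested, and CEACAM6 gave all of the SNX631 calls. NAALADL2, 1 of 2 tested relatives of the PSMA peptidase, rose in 4 of 6 kinase-active settings, with changes from 0.23 to 0.93 over the 6, and in Rv1-WT in FBS from 7.99 to 14.8 CPM. The other tested relative, FOLH1B, had no SNX631 call and rose in CSS in Rv1-Luc under vehicle (0.60, FDR = 0.00662, edgeR).

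Of 7 tested LY6/uPAR genes, the family of PSCA, LYPD6 fell in 2 kinase-active settings, LYPD3 in 1 and LY6E in 1. LY6E fell in dKO-19 by 1.81, from 1.00 to 0.290 CPM (FDR = 6.27e-05, edgeR), and changed by 0.80 in dKO-19M (FDR = 0.0876). In vehicle cultures of Rv1-WT, CSS lowered LYPD6 and PLAUR, the urokinase receptor, which fell by 1.54 and 0.65. Of 7 tested B7 genes, HHLA2 rose and BTN3A1 fell in 1 kinase-active setting each, Rv1-Luc in FBS. HHLA2 had 0 counts in the vehicle libraries there and 4 to 8 with SNX631. In CSS in Rv1-WT under vehicle VTCN1 (B7-H4) rose by 1.32 and BTN3A1 fell by 0.71. STEAP3, 1 of 2 tested STEAP relatives, was lower in CSS by -1.01 in vehicle cultures of Rv1-WT and changed by -0.11 in Rv1-Luc, and neither relative was called under SNX631 by edgeR in any setting.

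Of 28 tested surface targets of other carcinomas, 1 to 4 rose and 1 fell in each kinase-active setting, where 1.71% to 4.23% of all genes were called, and none was called in dKO-8M or dKO-19M by edgeR, where 0.015% and 0.09% of all genes were. TMPRSS2 and SLC45A3 were called in all 6. F3, the tissue factor that starts coagulation and an antibody-drug target, rose in 4 of them (0.84 to 1.42) and had -0.57 in dKO-19 (FDR = 2.38e-12, not called). TFRC, the transferrin receptor, fell by 1.24 in CSS in vehicle cultures of Rv1-WT, where TNFRSF10B, a TRAIL death receptor, rose by 1.04. In Rv1-Luc their changes were -0.07 and 0.11. Of 11 tested genes of folate uptake and use, none was called under SNX631 by edgeR, and TYMS, thymidylate synthase, fell by 0.80 in CSS in vehicle cultures of Rv1-WT.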
